A study of Mus musculus with 6 samples.

Results

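The transcripts of 71 enzymes, of families that add or remove acetyl and methyl groups on histone lysines, were followed in mouse T cells kept in the cold. The enzymes were chosen by gene name, and not by a shown activity on histones. They were every protein-coding gene whose symbol begins with Kdm, Kmt, Setd, Ehmt, Ezh, Suv39h, Nsd, Hdac or Sirt followed by a digit, or with Kat followed by 2, 5, 6, 7 or 8, together with Dot1l, Ep300 and Crebbp. This gave 71 of the 22255 protein-coding genes and of the 41079 genes listed in all. They comprised 9 acetyltransferases, 11 zinc-dependent deacetylases, 7 sirtuins, 26 methyltransferases and 18 demethylases. Of these 71 genes, 67 passed the filter on low values, a mean of at least 1 TPM over the 6 libraries, and were tested.

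Acetyl groups placed on histone tails by acetyltransferases loosen chromatin and are removed again by zinc-dependent deacetylases and by the NAD-dependent sirtuins. Methyl groups mark active or silent chromatin according to the lysine that carries them, and are written by methyltransferases and erased by demethylases. In T helper cells these enzymes help to keep cytokine and lineage genes open or closed through cell division.

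The cells were D10, a cloned CD4+ helper T cell line that the labels trace to lymph node. Non-acclimated cells were cultured at 37°C for 24 h and cold-acclimated cells at 26°C for 24 h, with 3 libraries in each condition and no other difference in treatment given. Poly(A)+ RNA was sequenced from strand-specific libraries, and the deposited values are transcript levels corrected for gene length (TPM), which sum to the same total in every library. The question of the comparison was how the transcripts of a T cell line differ after a day at low temperature. A line of 1 clone stands for no range of T cells, and the labels name RPMI as the medium whereas the study's methods name DMEM.

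The read numbers recovered from the TPM were 16899610, 21462475 and 31290844 in the non-acclimated libraries of replicates 1, 2 and 3, and 19605873, 20579277 and 25169458 in the cold-acclimated libraries. Throughout, values of a condition are given in the order of replicates 1, 2 and 3. Among the genes described, Kmt2e, Kmt5a, Kmt5b, Nsd1, Ehmt2, Suv39h2, Kat7, Hdac7, Hdac10, Kdm5a, Kdm7a, Kdm2b, Eed, Suz12, Wdr5, Pagr1a, Mta2, Setdb1, Ash1l, Il2ra, Top2a and E2f1 were chosen after their values were seen. Bulk TPM cannot tell fewer cells of a kind from less RNA per cell. The labels mention older and newer RNA extractions but do not assign them to libraries, so extraction batch could not be used. The p-values measure only the spread among these 6 libraries.

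The T cell label was checked first. Cd3e, a subunit of the T cell receptor complex, was at 874, 575 and 640 TPM at 37°C and 761, 484 and 476 TPM at 26°C. Cd4, the coreceptor named in the label, was at 1.09, 0.0351 and 310 TPM at 37°C and 1.3, 0.352 and 328 TPM at 26°C. It was near 0 in the 4 libraries of replicates 1 and 2 and abundant only in the 2 libraries of replicate 3, so Cd4 transcript marked replicate 3 alone. Of the 10 T cell markers, 9 were tested, and their summed level was 6150, 4740 and 5810 TPM at 37°C and 4870, 3760 and 3970 TPM at 26°C, led by Cd3g. Il2ra, a chain of the interleukin receptor, was the 1 marker of these 9 called downregulated (log2 fold change -2.56, limma adjusted p = 0.00673). Of all tested genes 16.0% were called downregulated. Because the libraries of replicate 3 stood apart, counts are also given without them, an alternative chosen after seeing the data.

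The listed markers of other cells were low, apart from 1 globin gene. Of the B cell markers, Ighm was at 3.13, 1.63 and 2.51 TPM at 37°C and 1.32, 0.894 and 0.986 TPM at 26°C, and Ms4a1 was at 0 in all 6 libraries. The 6 markers of macrophages and other antigen-presenting cells summed to 2.46, 3.39 and 15.9 TPM at 37°C and 3.24, 2.69 and 21.2 TPM at 26°C, led by Lyz2, with Cd14 at 0. Of the erythroid markers, Hba-a1 was at 189, 79.9 and 485 TPM at 37°C and 84.8, 60.8 and 473 TPM at 26°C, whereas Hbb-bs and Hbb-bt were at 0. The macrophage sum and Hba-a1 were highest in replicate 3 in both conditions, and the part of such cells in the results was not tested.

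Markers of dividing cells had fold changes below 0. The 15 markers of dividing cells, of which Pcna was the most abundant, summed to 2970, 3460 and 4240 TPM at 37°C and 1060, 654 and 3680 TPM at 26°C. The sum was low in cold-acclimated replicates 1 and 2, whereas cold-acclimated replicate 3 lay within the range of the non-acclimated libraries. Mki67, a marker of cycling cells, was at 230, 235 and 163 TPM at 37°C and 62.1, 43.1 and 173 TPM at 26°C (log2 fold change -1.40 with a standard error of 0.49, limma adjusted p = 0.0767). All 15 fitted log2 fold changes were below 0, with a median of -1.40, and 2 of the 15, Top2a and E2f1, were called downregulated (limma adjusted p = 0.0383 and 0.0246). The call of Top2a ended without 26°C replicate 1 (0.128) or 2 (0.11) or 37°C replicate 1 (0.108), 2 (0.102) or 3 (0.0749), or with median of ratios scaling (0.0564) or no filter on low values (0.0974), given with the limma adjusted p, and that of E2f1 without 26°C replicate 1 (0.084) or 2 (0.067) or 37°C replicate 1 (0.0719), 2 (0.0888) or 3 (0.0543), or with no filter on low values (0.0584). With the replicate number as a term in the limma fit, 8 of the 15 were called downregulated, where 21.9% of all tested genes were downregulated and 3.75% upregulated. Without replicate 3 the count was 14 (all tested genes, 25.3%), and with median of ratios scaling 1 (all tested genes, 8.80%). The 2 calls with TPM as deposited stand beside 16.0%. The part of cell division in the values of the enzymes was not tested.

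After cold acclimation, 14 of the 67 tested enzymes were called downregulated and 0 were called upregulated. A gene was called at a Benjamini-Hochberg adjusted p under 0.05, computed over all 12227 tested genes in limma, if its fold change also reached 1 on the log2(TPM + 1) scale, which understates the change of genes with low TPM. The 14 downregulated enzymes made up 20.9% of those tested, beside 16.0% of all tested genes called downregulated. Upregulated calls made up 2.63% of all tested genes. At an unadjusted p under 0.05 in limma, 3 enzymes were higher and 23 were lower, beside 7.75% and 30.0% of all tested genes, and voom on the recovered reads called 1 enzyme upregulated, Setd1a. At the adjusted p alone, 1 enzyme was higher and 17 were lower, beside 3.30% and 17.4% of all tested genes. The TPM ranges of the conditions did not overlap for 6 enzymes that were higher and 27 that were lower in all cold-acclimated libraries, beside 9.69% and 31.4% of all tested genes. The median log2 fold change of the 67 enzymes was -0.45, close to the -0.34 of all tested genes.

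The number of calls varied with the scaling and with the libraries used. The study's methods name median of ratios scaling, applied to read counts in the DESeq2 test and not to TPM. Here such scaling of the TPM between libraries moved the midpoint of all tested genes from a log2 fold change of -0.34 to 0.02. With it, 2 enzymes were called upregulated, Setd1a and Kmt5a, and 7 downregulated, beside 6.56% and 8.80% of all tested genes. The share of upregulated genes among all called genes was 14.1% with TPM as deposited and 42.7% with this scaling. Of the tested enzymes, 48 had a log2 fold change below 0 with TPM as deposited and 37 after the scaling. The 7 enzymes downregulated in both were Kat2b, Sirt4, Ehmt1, Ezh1, Ezh2, Kmt2a and Nsd3. Without replicate 3, 2 enzymes were called upregulated, Kdm5b and Setd1a, and 18 downregulated, beside 5.34% and 25.3% of all tested genes. The 18 included 13 of the 14, all but Setd1b, and added Hdac2, Hdac7, Kdm2b, Sirt5 and Suv39h1. With 1 library left out, downregulated calls numbered 3, 5 and 19 when the omitted library was cold-acclimated replicate 1, 2 or 3, and 4, 2 and 12 when it was non-acclimated replicate 1, 2 or 3. Calls over all tested genes varied likewise, from 1954 downregulated in the full set to 345 to 600 without 1 library of replicate 1 or 2. Kat2b and Nsd3 were the 2 enzymes called in all 6 of these fits. Without the filter on low values, Ezh2, Kdm1b, Nsd2 and Setd1b were not called.

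**Figure D1:**
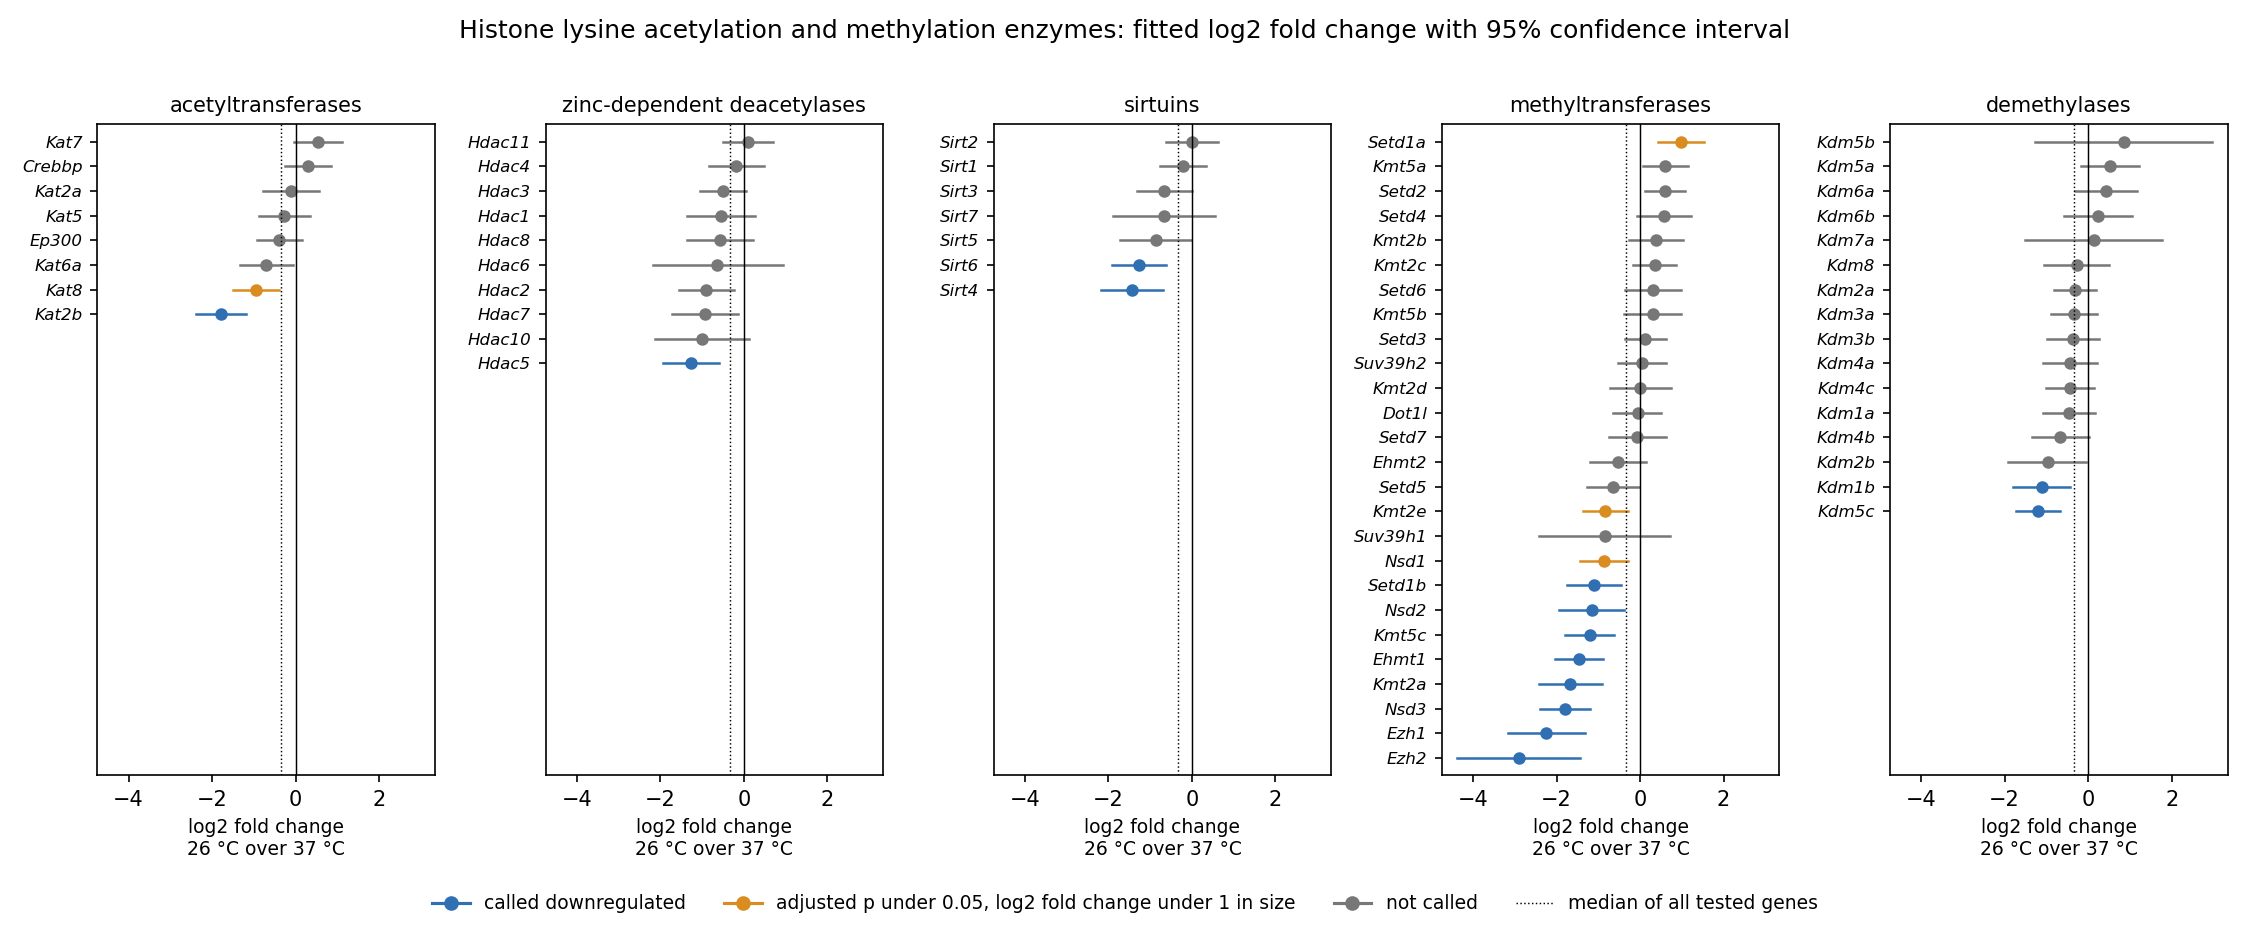
Fitted log2 fold change of TPM + 1, cold-acclimated (26°C) over non-acclimated (37°C), for the 67 tested enzymes in their 5 classes. Points are limma estimates from 3 libraries against 3, horizontal lines are 95% confidence intervals, the dotted line is the median of all tested genes (-0.34), and blue marks the 14 enzymes called downregulated, of which Ezh2 had the lowest estimate (-2.91).

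The methyltransferases held 8 of the 14 downregulated enzymes. These were 8 of 26, all tested, where 16.0% of all tested genes were downregulated. Under median of ratios scaling 5 were downregulated and 2 upregulated, where 8.80% and 6.56% of all tested genes were. In the class the median log2 fold change was -0.30, and the fitted values ran from -2.91 to 0.97, the widest range of the 5 classes. Their summed level was 1150, 1210 and 1210 TPM at 37°C and 883, 957 and 1020 TPM at 26°C, lower in every cold-acclimated library.

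The H3K27 methyltransferases Ezh1 and Ezh2 had the lowest fitted fold changes on the log2(TPM + 1) scale, whereas in voom Sirt4 (-2.41) lay below Ezh1 (-2.35). Ezh2, the main catalytic subunit of Polycomb repressive complex 2 in dividing cells, lies on chromosome 6 (47507208 to 47613843) of GRCm39. It was at 199, 216 and 173 TPM at 37°C and 21.2, 9.63 and 74.6 TPM at 26°C. All 3 cold-acclimated values lay below the lowest non-acclimated value, and replicate 3 kept the highest of them. The mean was 5.57-fold lower after cold acclimation (log2 fold change -2.91 with a standard error of 0.63, limma adjusted p = 0.0212). The log2 fold change within replicates 1, 2 and 3 was -3.17, -4.35 and -1.20. Ezh1, its relative in resting cells, lies on chromosome 11 (101081941 to 101117268) and was at 32.9, 19.8 and 18.6 TPM at 37°C and 2.42, 3.63 and 7.15 TPM at 26°C. The conditions did not overlap, and the mean was 5.4-fold lower (log2 fold change -2.25 with a standard error of 0.39, limma adjusted p = 0.0119). Together the 2 genes summed to 232, 236 and 192 TPM at 37°C and 23.6, 13.3 and 81.8 TPM at 26°C. Ezh2 lost its call without 26°C replicate 1 (0.0795) or 2 (0.0548) or 37°C replicate 1 (0.0702) or 2 (0.0787), or with no filter on low values (0.0597), given with the limma adjusted p. Ezh1 was no longer called without 26°C replicate 1 (0.0506) or 37°C replicate 1 (0.0532) or 2 (0.0513), although the values stayed close to the threshold. The cold-acclimated library with the most Ezh2 transcript was also the one with the most transcript of dividing-cell markers. Whether these values are linked was not tested.

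The partners of Ezh1 and Ezh2 in Polycomb repressive complex 2 were counted next. Of 9 partner genes, all tested, 1 was called downregulated and 0 upregulated in limma, with 0 higher and 2 lower at an unadjusted p under 0.05 and 0 called upregulated by voom. Of all tested genes 16.0% were called downregulated and 2.63% upregulated, and 30.0% were lower and 7.75% higher at the unadjusted p. The list held 0 upregulated and 0 downregulated genes with median of ratios scaling, beside 6.56% and 8.80% of all tested genes. Fitted log2 fold changes of the 9 had a median of 0.00, within a range of -1.90 to 0.30, and their summed level was 1150, 1270 and 1570 TPM at 37°C and 1260, 1160 and 1880 TPM at 26°C, led by the histone-binding subunit Rbbp7. Of the core subunits, Eed was at 78.7, 104 and 102 TPM at 37°C and 98.3, 97.7 and 100 TPM at 26°C. Suz12 was at 184, 173 and 165 TPM at 37°C and 159, 154 and 215 TPM at 26°C. Neither subunit passed the test (adjusted p = 0.856 and 0.997 in limma), and the values of the conditions overlapped. The accessory subunits Mtf2 and Phf19 had the smallest p of the list. Mtf2 was at 17.4, 18.8 and 19.1 TPM at 37°C and 5.65, 7.08 and 13.1 TPM at 26°C and was called downregulated (log2 fold change -1.09 with a standard error of 0.32, limma adjusted p = 0.049993), a call that ended without 26°C replicate 1 (0.158) or 2 (0.146) or 37°C replicate 1 (0.12), 2 (0.145) or 3 (0.0953), or with median of ratios scaling (0.118) or no filter on low values (0.0968) or a pseudocount of 0.1 (0.0509). Phf19 was at 15.3, 24.7 and 26.7 TPM at 37°C and 2.74, 1.86 and 20 TPM at 26°C, with cold-acclimated replicate 3 inside the non-acclimated range (log2 fold change -1.90 with a standard error of 0.71, limma adjusted p = 0.0947). With the replicate as a term, the adjusted p of Phf19 was 0.0265 in limma and 2 of the 9 partners were called downregulated.

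The H3K4 methyltransferases moved in both directions. Of the 8 genes, Kmt2a and Setd1b were called downregulated, Kmt2e was lower at the adjusted p alone and Setd1a was higher at the adjusted p alone. These are 2 of 8 called and 3 lower and 1 higher at the adjusted p, where 16.0% of all tested genes were called downregulated and 2.63% upregulated, and 17.4% were lower and 3.30% higher at the adjusted p. Under median of ratios scaling 1 of the 8 was called upregulated and 1 downregulated, beside 6.56% and 8.80%. Kmt2a, which keeps homeobox genes active, was at 35.1, 20 and 18.2 TPM at 37°C and 6.62, 5.34 and 8.42 TPM at 26°C. Its conditions did not overlap, and the cold-acclimated libraries lay within a narrow range (log2 fold change -1.67 with a standard error of 0.32, limma adjusted p = 0.0157). Setd1b, a catalytic subunit of the complexes that place most trimethylated H3K4 at promoters, was at 13.7, 17.4 and 21.7 TPM at 37°C and 5.98, 9.18 and 7.71 TPM at 26°C (log2 fold change -1.11 with a standard error of 0.28, limma adjusted p = 0.0326). Its close relative Setd1a, chosen here after its values were seen, lies on chromosome 7 (127376561 to 127399294) and was at 43, 56.8 and 49.4 TPM at 37°C and 99.6, 117 and 80.6 TPM at 26°C. Every cold-acclimated value of Setd1a was above every non-acclimated value, with a 1.99-fold higher mean (log2 fold change 0.97 with a standard error of 0.24, limma adjusted p = 0.0292). It was just under the size threshold with TPM as deposited, and reached 1.37 with median of ratios scaling (adjusted p = 0.0168 in limma). Kmt2e, a family member without clear methyltransferase activity, was at 48.7, 40 and 40.5 TPM at 37°C and 20.7, 22.9 and 28.2 TPM at 26°C (log2 fold change -0.83 with a standard error of 0.23, limma adjusted p = 0.0424). The other 4 genes, Kmt2b, Kmt2c, Kmt2d and Setd7, had log2 fold changes from -0.07 to 0.38 and did not pass the test with TPM as deposited, although the values of Kmt2c did not overlap and the sign of Setd7 turned with median of ratios scaling (0.33). The replicate term and this scaling together, chosen after seeing the data, gave a limma adjusted p of 0.0316 for Kmt2b and 0.0439 for Kmt2c.

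Most of these calls ended when single libraries were left out, while the fold changes stayed near the full ones. Over the 6 fits the log2 fold change was -1.84 to -1.38 for Kmt2a, -1.26 to -0.95 for Setd1b, 0.85 to 1.11 for Setd1a and -0.95 to -0.73 for Kmt2e. Kmt2a was not called without 26°C replicate 1 (0.0628) or 2 (0.0619) or 37°C replicate 1 (0.0568) or 2 (0.058), given with the limma adjusted p. Setd1b was not called without 26°C replicate 1 (0.118) or 2 (0.0701) or 37°C replicate 1 (0.0656), 2 (0.111) or 3 (0.0715), or with median of ratios scaling (0.0978) or no filter on low values (0.0638). Setd1a no longer passed the adjusted p without 26°C replicate 1 (0.102) or 2 (0.106) or 37°C replicate 1 (0.0925), 2 (0.0811) or 3 (0.0543), and Kmt2e no longer did without 26°C replicate 1 (0.146) or 2 (0.126) or 37°C replicate 1 (0.131), 2 (0.12) or 3 (0.065), or with median of ratios scaling (0.186) or no filter on low values (0.0502) or voom (0.0553).

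Other subunits of the H3K4 methyltransferase complexes were also counted. Of 13 COMPASS subunits, all tested, 3 were called downregulated and 0 upregulated in limma, with 1 higher and 5 lower at an unadjusted p under 0.05 and 0 called upregulated by voom. Of all tested genes 16.0% were called downregulated and 2.63% upregulated, and 30.0% were lower and 7.75% higher at the unadjusted p. The list held 1 upregulated and 2 downregulated genes with median of ratios scaling, beside 6.56% and 8.80% of all tested genes. Fitted log2 fold changes of the 13 had a median of -0.45. Men1, which encodes menin and tethers Kmt2a and Kmt2b to chromatin, was at 66.6, 74 and 83.1 TPM at 37°C and 23.2, 16.5 and 21.5 TPM at 26°C. Its conditions lay far apart (log2 fold change -1.83 with a standard error of 0.23, limma adjusted p = 0.00699), and it was called in all 6 fits with 1 library left out. Rbbp5, part of the core that activates the enzymes, was at 27.1, 26.9 and 33.6 TPM at 37°C and 9.2, 7.01 and 15.9 TPM at 26°C (log2 fold change -1.43 with a standard error of 0.32, limma adjusted p = 0.0228), a call that ended without 26°C replicate 1 (0.0866) or 2 (0.0775) or 37°C replicate 1 (0.0708), 2 (0.0805) or 3 (0.0532), or with no filter on low values (0.0515). Wdr5, another core subunit, was at 99.4, 114 and 101 TPM at 37°C and 208, 193 and 144 TPM at 26°C, higher in every cold-acclimated library. Its limma adjusted p was 0.0502 with TPM as deposited, 0.027 with the replicate as a term, 0.037 with voom and 0.0229 with median of ratios scaling, which called it upregulated (log2 fold change 1.17). Pagr1a, also called, lost its call without 26°C replicate 1 (0.0598), 2 (0.0845) or 3 (0.0313) or 37°C replicate 1 (0.0594), 2 (0.101) or 3 (0.0524), or with median of ratios scaling (0.107) or voom (0.0442, log2 fold change -0.94), in cold-acclimated replicate 3 because of the size of its change.

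Among the H3K9 methyltransferases, Ehmt1 fell and its partner did not pass the test. Ehmt1, which forms a heterodimer with Ehmt2 that dimethylates H3K9, was at 42.8, 56.3 and 36.5 TPM at 37°C and 17, 14.9 and 14.9 TPM at 26°C. The 3 cold-acclimated values lay close together and below all non-acclimated values (log2 fold change -1.46 with a standard error of 0.25, limma adjusted p = 0.011). It was called in 5 of the 6 fits with 1 library left out and not without 37°C replicate 2 (0.0577), given with the limma adjusted p. Ehmt2 was at 105, 104 and 144 TPM at 37°C and 68.6, 66.1 and 114 TPM at 26°C (adjusted p = 0.222 in limma), with cold-acclimated replicate 3 inside the non-acclimated range. Suv39h2, a trimethylating enzyme of constitutive heterochromatin, was at 41.2, 44.4 and 28.7 TPM at 37°C and 36.8, 41.9 and 36.9 TPM at 26°C (log2 fold change 0.04).

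Suv39h1 differed between replicates more than between conditions. This second trimethylating enzyme of heterochromatin, chosen here after its values were seen, was at 38.1, 42.3 and 88.1 TPM at 37°C and 17.2, 14.9 and 88.7 TPM at 26°C. The values of replicate 3 were the highest at both temperatures and nearly equal. In replicates 1 and 2 the log2 fold changes were -1.11 and -1.44, against 0.01 in replicate 3. Over all libraries it was not called (log2 fold change -0.85 with a standard error of 0.67, limma adjusted p = 0.402), nor with the replicate as a term (0.0713). Without replicate 3 it was called downregulated (log2 fold change -1.28, adjusted p = 0.0108 in limma), and likewise without cold-acclimated replicate 3 alone (adjusted p = 0.0226).

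Among the H3K36 methyltransferases, Nsd3 and Nsd2 were called downregulated. Nsd3, which dimethylates H3K36, lies on chromosome 8 (26091617 to 26209694) and was at 31, 25.8 and 25.7 TPM at 37°C and 5.86, 6.9 and 8.99 TPM at 26°C. It had the smallest p of all 67 enzymes, a 3.79-fold lower mean and no overlap between the conditions (log2 fold change -1.80 with a standard error of 0.25, limma adjusted p = 0.00749). With any 1 library left out, its limma adjusted p stayed between 0.00332 and 0.0458. Nsd2, an enzyme of the same kind, was at 69.8, 81.1 and 77.9 TPM at 37°C and 25.8, 25.9 and 56.1 TPM at 26°C, with cold-acclimated replicate 3 nearest to the non-acclimated range (log2 fold change -1.16 with a standard error of 0.33, limma adjusted p = 0.0456). Nsd2 was called in 1 of the 6 fits with a library left out, and not without 26°C replicate 1 (0.151) or 2 (0.146) or 37°C replicate 1 (0.104), 2 (0.139) or 3 (0.0865), or with median of ratios scaling (0.1) or no filter on low values (0.0853). Nsd1 was at 11.1, 9.75 and 13.4 TPM at 37°C and 5.65, 5.43 and 6.38 TPM at 26°C and was lower at the adjusted p alone (log2 fold change -0.86 with a standard error of 0.25, limma adjusted p = 0.0473), and no longer so without 26°C replicate 1 (0.14) or 2 (0.137) or 37°C replicate 1 (0.125), 2 (0.112) or 3 (0.0991), or with median of ratios scaling (0.181) or no filter on low values (0.089). Setd2, the enzyme that trimethylates H3K36 along transcribed genes, had a fold change above 0. Chosen here after its values were seen, it was at 42.1, 43.3 and 36.8 TPM at 37°C and 61.9, 66.5 and 57.9 TPM at 26°C, so that all cold-acclimated values were higher (log2 fold change 0.60), but its adjusted p was 0.0765 in limma. The adjusted p was 0.0243 with median of ratios scaling and 0.0446 with voom.

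Of the H4K20 methyltransferases, Kmt5c fell. Kmt5c, which trimethylates H4K20 in silent chromatin, was at 29.1, 30 and 24.5 TPM at 37°C and 12.8, 13 and 8.9 TPM at 26°C (log2 fold change -1.21 with a standard error of 0.25, limma adjusted p = 0.0188). Its values did not overlap, and it was not called without 26°C replicate 1 (0.0616) or 2 (0.0548) or 37°C replicate 1 (0.0695) or 2 (0.0839), or with median of ratios scaling (0.071), given with the limma adjusted p. Kmt5a, which places the first methyl group on H4K20 and is needed for mitosis, was at 94.7, 124 and 132 TPM at 37°C and 181, 201 and 150 TPM at 26°C. All its cold-acclimated values were above the non-acclimated ones, with a log2 fold change of 0.60 and an adjusted p of 0.104 in limma with TPM as deposited and 0.0327 with median of ratios scaling. Kmt5b was at 5.21, 7.16 and 9.44 TPM at 37°C and 8.6, 10.6 and 7.84 TPM at 26°C and overlapped between the conditions. Dot1l, the H3K79 methyltransferase, was at 32.3, 35.8 and 45.4 TPM at 37°C and 40.5, 38.9 and 29.2 TPM at 26°C, also with overlap (log2 fold change -0.06 with a standard error of 0.25, limma adjusted p = 0.886). Its sign turned with median of ratios scaling (0.33) and in voom (0.06). The remaining genes named Setd are Setd3, which methylates actin, Setd4, Setd5 and Setd6. Their log2 fold changes ran from -0.65 to 0.58, and 0 of the 4 passed the adjusted p in limma with TPM as deposited (Setd6 had 0.0447 with the replicate term and median of ratios scaling together), with 0 higher and 1 lower at an unadjusted p under 0.05. Of all tested genes 17.4% were lower and 3.30% higher at the adjusted p, and 30.0% and 7.75% at the unadjusted p.

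**Figure D2:**
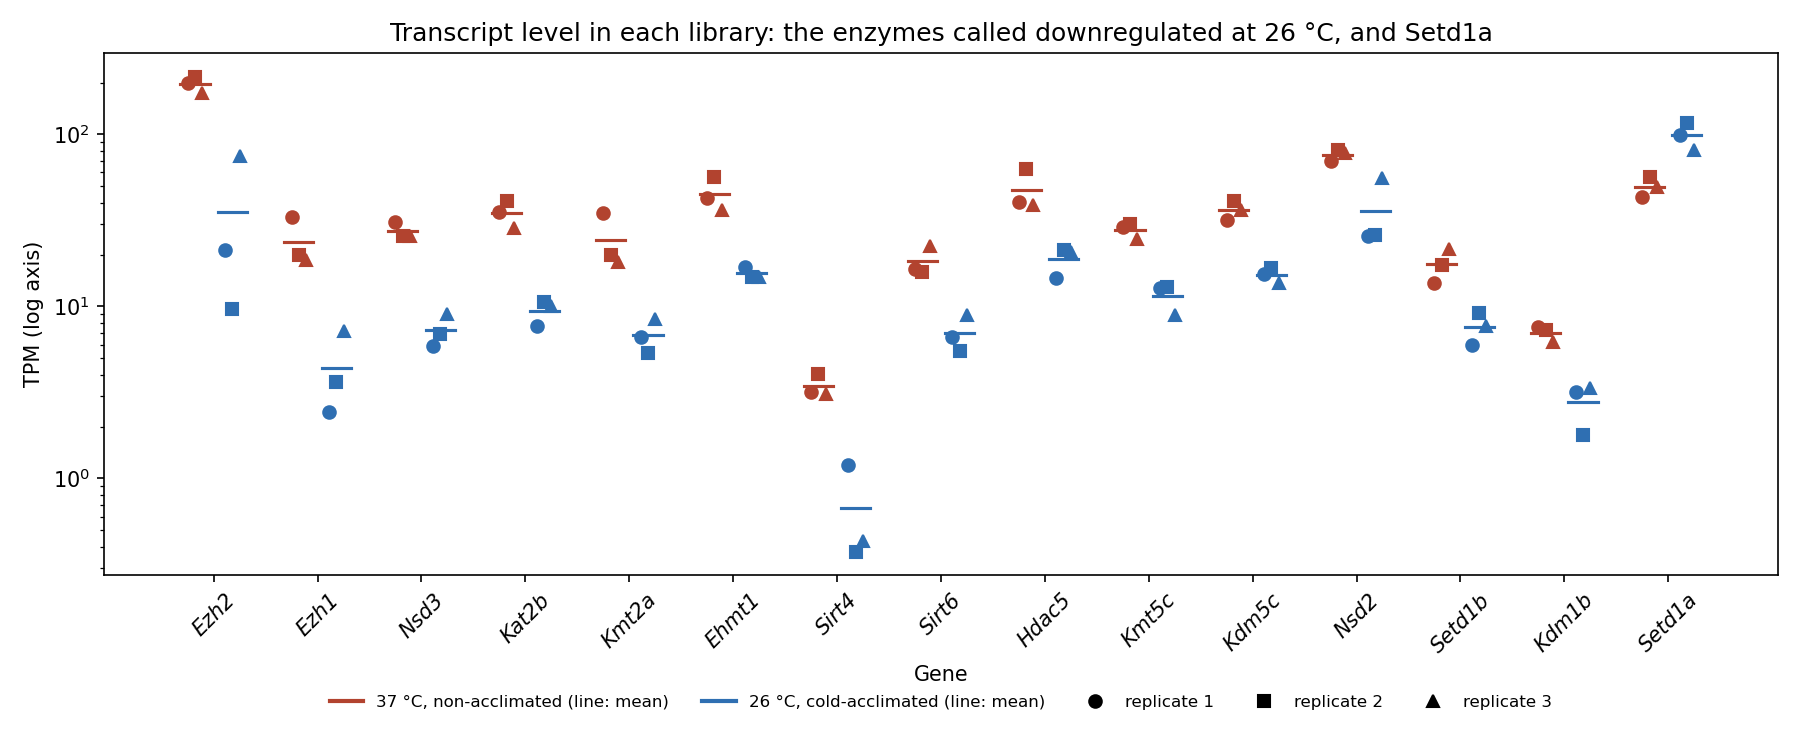
TPM on a log axis in each of the 6 libraries for the 14 enzymes called downregulated, ordered by fitted change, and for Setd1a. Red is 37°C and blue is 26°C, marker shapes give the replicate and short lines the mean of 3 libraries. The colours do not overlap for any gene shown, and the cold-acclimated value of Ezh2 in replicate 3 (74.6 TPM) stands above those in replicates 1 and 2 (21.2 and 9.63 TPM).

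Of the 9 acetyltransferases, 8 were tested, with 1 called downregulated (also with median of ratios scaling) and a median log2 fold change of -0.33, near the 16.0% and the median of -0.34 of all tested genes. Their summed level was 362, 415 and 377 TPM at 37°C and 333, 345 and 339 TPM at 26°C. Kat2b, a catalytic subunit of SAGA-type coactivator complexes, lies on chromosome 17 (53873802 to 53979749) and was at 35.5, 41.1 and 28.6 TPM at 37°C and 7.66, 10.6 and 10 TPM at 26°C. All cold-acclimated values were below the lowest non-acclimated value, with a 3.72-fold lower mean (log2 fold change -1.79 with a standard error of 0.25, limma adjusted p = 0.00768). Its limma adjusted p ranged from 0.00514 to 0.0476 when single libraries were left out. Kat2a, its close relative and the most abundant acetyltransferase, was at 90.7, 158 and 129 TPM at 37°C and 130, 126 and 87.2 TPM at 26°C. Its values overlapped (log2 fold change -0.12 with a standard error of 0.29, limma adjusted p = 0.796), and its sign turned with median of ratios scaling (0.27). Kat8, which acetylates H4K16, was at 19.9, 26.7 and 26.2 TPM at 37°C and 11.7, 13.1 and 11.1 TPM at 26°C. The conditions did not overlap, and Kat8 was lower at the adjusted p with a change just under the size threshold (log2 fold change -0.95 with a standard error of 0.24, limma adjusted p = 0.0308), which it reached with a pseudocount of 0.1 (adjusted p = 0.0304 in limma). Kat8 no longer passed the adjusted p without 26°C replicate 1 (0.105) or 2 (0.0794) or 37°C replicate 1 (0.0639), 2 (0.125) or 3 (0.0645), or with median of ratios scaling (0.122) or voom (0.0656).

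The paired coactivators Ep300 and Crebbp, which acetylate H3K27 at enhancers, lay on opposite sides. Ep300 was at 38, 32.1 and 43.5 TPM at 37°C and 27.7, 26.4 and 31.4 TPM at 26°C, lower in every cold-acclimated library without passing the test (log2 fold change -0.39 with a standard error of 0.23, limma adjusted p = 0.252), and at 0.00 after median of ratios scaling. Crebbp was at 13.4, 11.1 and 14.7 TPM at 37°C and 14.6, 16.9 and 16.8 TPM at 26°C, with overlap (log2 fold change 0.29 with a standard error of 0.23, limma adjusted p = 0.41). Kat7, which acetylates H3K14, was at 86.9, 68.9 and 74.7 TPM at 37°C and 95.3, 99.6 and 143 TPM at 26°C. All its cold-acclimated values were the higher ones, with an adjusted p of 0.157 in limma with TPM as deposited and 0.032 with median of ratios scaling. Kat5 and Kat6a had log2 fold changes of -0.27 and -0.70 and were not called, and that of Kat5 was 0.10 with median of ratios scaling. The adjusted p of Kat6a was 0.105 in limma, and 0.0367 with the replicate as a term. Kat6b was not tested, because its values of 0.784, 1.17 and 0.58 TPM at 37°C and 0.134, 0.258 and 0.212 TPM at 26°C fell under the filter.

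Of 38 subunits of the acetyltransferase complexes, all tested, 1 was called upregulated and 5 downregulated with TPM as deposited. Their median log2 fold change was -0.23, with 5 higher and 9 lower at an unadjusted p under 0.05 in limma. Of all tested genes 16.0% were called downregulated and 2.63% upregulated, and 30.0% were lower and 7.75% higher at the unadjusted p. The list held 4 upregulated and 2 downregulated genes with median of ratios scaling, beside 6.56% and 8.80% of all tested genes. The balance of calls thus turned with the scaling, and voom called 2 upregulated and 4 downregulated. The replicate term gave 1 and 7, and no filter on low values gave 1 and 3. With 1 library left out, upregulated calls ran from 0 to 2 and downregulated calls from 0 to 7. Taf6l and Taf5l are both scaffold subunits of the SAGA complex that holds Kat2a or Kat2b, and they moved in opposite directions. Taf6l was at 19.9, 23.7 and 27.6 TPM at 37°C and 3.24, 2 and 7.45 TPM at 26°C (log2 fold change -2.37 with a standard error of 0.40, limma adjusted p = 0.011). It was not called without 26°C replicate 1 (0.0518) or 37°C replicate 2 (0.053), given with the limma adjusted p. Taf5l, named here after its values were seen, was at 62.9, 70 and 71.7 TPM at 37°C and 208, 188 and 129 TPM at 26°C (log2 fold change 1.32 with a standard error of 0.25, limma adjusted p = 0.0144), and was not called without 26°C replicate 1 (0.0637) or 2 (0.06) or 37°C replicate 1 (0.0567) or 2 (0.063). Ing4, a reader of trimethylated H3K4 in Kat7 complexes, was at 49.9, 51.9 and 36.7 TPM at 37°C and 12.1, 13.8 and 19.1 TPM at 26°C (log2 fold change -1.56 with a standard error of 0.27, limma adjusted p = 0.0114). Ing4 was not called without 26°C replicate 1 (0.0533) or 37°C replicate 1 (0.0532) or 2 (0.0596).

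Of the 11 zinc-dependent deacetylases, 10 were tested and 1, Hdac5, was called downregulated, beside 16.0% of all tested genes. With median of ratios scaling 0 were called downregulated (8.80% of all tested genes), and without replicate 3 the count was 3 (25.3%). The median log2 fold change was -0.60, with 9 of the 10 below 0 with TPM as deposited and 8 with median of ratios scaling. Hdac5, a class IIa deacetylase that shuttles between nucleus and cytoplasm, was at 40.2, 63.2 and 38.6 TPM at 37°C and 14.6, 21.4 and 20.8 TPM at 26°C. The conditions did not overlap (log2 fold change -1.26 with a standard error of 0.29, limma adjusted p = 0.0235). Hdac5 was not called without 26°C replicate 1 (0.0903) or 2 (0.0652) or 37°C replicate 1 (0.0646) or 2 (0.0934), or with median of ratios scaling (0.0606), given with the limma adjusted p.

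Hdac1 and Hdac2, the interchangeable catalytic subunits of the Sin3, NuRD and CoREST corepressors, had the highest levels of the zinc-dependent deacetylases. Hdac2 was at 205, 262 and 259 TPM at 37°C and 113, 101 and 184 TPM at 26°C. All cold-acclimated values were lower, and replicate 3 was closest to the non-acclimated range (log2 fold change -0.90 with a standard error of 0.28, limma adjusted p = 0.0585). Its adjusted p was 0.024 in limma with the replicate as a term, and it was called downregulated without replicate 3 (log2 fold change -1.11, adjusted p = 0.0172). Hdac1 was at 151, 175 and 217 TPM at 37°C and 111, 81.5 and 202 TPM at 26°C, with cold-acclimated replicate 3 inside the non-acclimated range (log2 fold change -0.54 with a standard error of 0.35, limma adjusted p = 0.304). Without cold-acclimated replicate 3 its limma adjusted p was 0.0445 (log2 fold change -0.90), and without both libraries of replicate 3 it was 0.0601 (-0.76). Hdac3, the deacetylase of the NCoR complexes, was at 117, 98.7 and 96 TPM at 37°C and 83.7, 57.8 and 81.3 TPM at 26°C, lower in every cold-acclimated library without passing the test (log2 fold change -0.49 with a standard error of 0.24, limma adjusted p = 0.173).

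Hdac6 repeated the pattern of Suv39h1. This mainly cytoplasmic deacetylase of tubulin, chosen here after its values were seen, was at 25.3, 30 and 66.7 TPM at 37°C and 14.1, 13 and 70.4 TPM at 26°C. It was highest in replicate 3 at both temperatures and lower after cold acclimation in replicates 1 and 2 only. Without cold-acclimated replicate 3 it was called downregulated (adjusted p = 0.0495 in limma), against 0.539 over all libraries and 0.124 with the replicate as a term. Without both libraries of replicate 3 the adjusted p was 0.0258 in limma at a log2 fold change of -0.98. Hdac7, a class IIa enzyme of developing T cells, was at 26.1, 18.7 and 32.7 TPM at 37°C and 11, 9.55 and 19.5 TPM at 26°C (log2 fold change -0.93 with a standard error of 0.34, limma adjusted p = 0.0904). Hdac10, a deacetylase of polyamines, was at 9.31, 13.3 and 22.2 TPM at 37°C and 3.27, 6.53 and 12.4 TPM at 26°C (adjusted p = 0.173 in limma). With the replicate as a term, the adjusted p was 0.0206 for Hdac7 and 0.0198 for Hdac10. Both were called downregulated without cold-acclimated replicate 3, Hdac7 at a log2 fold change of -1.22 (limma adjusted p = 0.0254) and Hdac10 at -1.41 (0.0499). Without both libraries of replicate 3, Hdac7 was called (log2 fold change -1.04, limma adjusted p = 0.0329) and Hdac10 was not (-1.10, 0.0672). Hdac4, Hdac8 and Hdac11 had log2 fold changes of -0.18, -0.58 and 0.09 and low values of at most 5.91 TPM, and the sign of Hdac4 turned with median of ratios scaling (0.11). Hdac9 was not tested, with at most 0.0478 TPM in any library.

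Among the subunits of the corepressors that carry these deacetylases, few were called. Of 23 subunits, all tested, 1 was called downregulated and 0 upregulated in limma, with 2 higher and 4 lower at an unadjusted p under 0.05 and 0 called upregulated by voom. Of all tested genes 16.0% were called downregulated and 2.63% upregulated, and 30.0% were lower and 7.75% higher at the unadjusted p. The list held 2 upregulated and 1 downregulated genes with median of ratios scaling, beside 6.56% and 8.80% of all tested genes. Fitted log2 fold changes of the 23 had a median of -0.18, within a range of -1.44 to 0.68. Mta1, a subunit of the NuRD complex, was at 137, 165 and 156 TPM at 37°C and 44.5, 47.4 and 80.5 TPM at 26°C (log2 fold change -1.44 with a standard error of 0.28, limma adjusted p = 0.0156), and was not called without 26°C replicate 1 (0.0664) or 2 (0.0633) or 37°C replicate 1 (0.0531) or 2 (0.0703), given with the limma adjusted p. Mta3, its relative, was at 27.5, 22.9 and 23.1 TPM at 37°C and 12.7, 10.3 and 15.3 TPM at 26°C and was lower at the adjusted p alone (log2 fold change -0.90 with a standard error of 0.25, limma adjusted p = 0.0396). Mta3 no longer passed without 26°C replicate 1 (0.119) or 2 (0.129) or 37°C replicate 1 (0.128), 2 (0.117) or 3 (0.0636), or with median of ratios scaling (0.149) or no filter on low values (0.0564). Another relative, Mta2, was at 150, 128 and 245 TPM at 37°C and 207, 148 and 271 TPM at 26°C, with overlap between the conditions.

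All 7 sirtuins were tested, and 2 were called downregulated, where the share of all tested genes was 16.0%. Scaling by median of ratios left 1 of the 7, beside 8.80%, and without replicate 3 the count was 3, beside 25.3%. Sirt4, a mitochondrial enzyme, was at 3.19, 4.05 and 3.09 TPM at 37°C and 1.2, 0.376 and 0.433 TPM at 26°C. Its conditions did not overlap, but it rested on only 13 to 143 recovered reads per library (log2 fold change -1.44 with a standard error of 0.32, limma adjusted p = 0.0214). Sirt6, which deacetylates H3K9 on chromatin, was at 16.4, 15.9 and 22.5 TPM at 37°C and 6.67, 5.51 and 8.86 TPM at 26°C, again without overlap (log2 fold change -1.27 with a standard error of 0.28, limma adjusted p = 0.0212). Sirt4 was not called without 26°C replicate 1 (0.0506) or 2 (0.0816) or 37°C replicate 1 (0.0662) or 2 (0.0851), given with the limma adjusted p. Sirt6 was not called without 26°C replicate 1 (0.0795) or 2 (0.0773) or 37°C replicate 1 (0.0661) or 2 (0.0732), or with median of ratios scaling (0.0499, log2 fold change -0.91).

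The most abundant of all 71 enzymes, the tubulin deacetylase Sirt2, did not separate the conditions. Sirt2 was at 276, 356 and 218 TPM at 37°C and 312, 309 and 220 TPM at 26°C, with an adjusted p of 0.996 in limma and a log2 fold change between -0.63 and 0.63 (95% confidence interval). Sirt1, the nuclear deacetylase of many transcription factors, was at 40.3, 56.3 and 41.6 TPM at 37°C and 40.7, 42.6 and 34.7 TPM at 26°C (log2 fold change -0.21 with a standard error of 0.23, limma adjusted p = 0.552). The sign of both was positive with median of ratios scaling (0.40 and 0.18). The mitochondrial Sirt3 and Sirt5 had log2 fold changes of -0.66 and -0.87, and the nucleolar Sirt7 of -0.67. Their adjusted p was 0.136, 0.123 and 0.401 in limma. Without replicate 3, Sirt5 was called downregulated (log2 fold change -1.18, limma adjusted p = 0.0422) and Sirt3 passed the adjusted p alone (-0.99, 0.029). The summed sirtuin level was 444, 522 and 438 TPM at 37°C and 435, 392 and 401 TPM at 26°C, so that the lowest 37°C sum lay narrowly above the highest 26°C sum.

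Of the 18 demethylases, 16 were tested and 2 were called downregulated, both of them H3K4 demethylases. This stands beside 16.0% of all tested genes, and 0 of the 16 were called with median of ratios scaling (8.80% of all tested genes). Without replicate 3, 1 was called upregulated and 3 downregulated, beside 5.34% and 25.3%. The median log2 fold change of the class was -0.35, and the summed level was 471, 471 and 444 TPM at 37°C and 336, 412 and 392 TPM at 26°C. Kdm5c, an X-linked demethylase of trimethylated H3K4, was at 31.7, 41 and 36.4 TPM at 37°C and 15.5, 16.7 and 13.6 TPM at 26°C. The conditions did not overlap and each lay within a narrow range (log2 fold change -1.20 with a standard error of 0.23, limma adjusted p = 0.015). Kdm5c was not called without 26°C replicate 1 (0.0616) or 37°C replicate 2 (0.0767), or with median of ratios scaling (0.0487, log2 fold change -0.81), given with the limma adjusted p. Kdm1b, a flavin-dependent demethylase, was at 7.62, 7.31 and 6.18 TPM at 37°C and 3.19, 1.79 and 3.37 TPM at 26°C (log2 fold change -1.11 with a standard error of 0.29, limma adjusted p = 0.0355). Kdm1b was not called without 26°C replicate 1 (0.0897) or 2 (0.115) or 37°C replicate 1 (0.11), 2 (0.119) or 3 (0.0509), or with median of ratios scaling (0.0917) or no filter on low values (0.0876). Kdm1a, its relative in the CoREST complex and the most abundant demethylase, was at 84.2, 93.6 and 132 TPM at 37°C and 58.6, 78.2 and 87.7 TPM at 26°C, with overlap (log2 fold change -0.45 with a standard error of 0.27, limma adjusted p = 0.262).

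Other members of the Kdm5 family had fold changes above 0 and were not called with TPM as deposited. Kdm5a was at 30.6, 27.9 and 17 TPM at 37°C and 33.7, 43.8 and 29.9 TPM at 26°C, with overlap (log2 fold change 0.52, adjusted p = 0.246 in limma). It was higher at 26°C within each replicate, and its adjusted p was 0.0253 in limma with the replicate term and median of ratios scaling together, a setting chosen after seeing the data. Kdm5b, chosen here after its values were seen, was at 6.02, 7.21 and 0.908 TPM at 37°C and 12.9, 20.1 and 1.18 TPM at 26°C. Replicate 3 held little of it at either temperature, whereas cold acclimation gave the higher value within each replicate. Over all libraries it was not called (log2 fold change 0.85 with a standard error of 0.91, limma adjusted p = 0.541), nor with the replicate as a term (0.0645), but it was called upregulated with this term and median of ratios scaling together (log2 fold change 1.17, adjusted p = 0.042 in limma). Without replicate 3 it was also called upregulated (log2 fold change 1.18, adjusted p = 0.0317 in limma). Kdm7a, an eraser of H3K9 and H3K27 methylation, was likewise low in replicate 3, at 14.4, 14.1 and 3.78 TPM at 37°C and 12.1, 24.5 and 3.45 TPM at 26°C (adjusted p = 0.912 in limma). Kdm5d, a gene of chromosome Y, was listed at 0 in all 6 libraries.

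The H3K27 demethylases did not pass the test with TPM as deposited. Kdm6a, an X-linked enzyme of enhancers, was at 8.18, 7.37 and 11.6 TPM at 37°C and 9.57, 10.7 and 18.1 TPM at 26°C, with overlap (log2 fold change 0.43 with a standard error of 0.32, limma adjusted p = 0.369), and an adjusted p of 0.0366 with the replicate term and median of ratios scaling together. Kdm6b, which is induced on T cell activation, was at 33.7, 26.3 and 24 TPM at 37°C and 42.7, 41.9 and 19.1 TPM at 26°C, with the lowest value of all in cold-acclimated replicate 3 (log2 fold change 0.23 with a standard error of 0.35, limma adjusted p = 0.681). The summed level of Kdm6a and Kdm6b was 41.9, 33.6 and 35.6 TPM at 37°C and 52.3, 52.7 and 37.3 TPM at 26°C. Among the demethylases of H3K9, the tested genes Kdm3a, Kdm3b, Kdm4a, Kdm4b and Kdm4c had log2 fold changes from -0.67 to -0.33, and those of Kdm3a and Kdm3b were above 0 with median of ratios scaling (0.06 and 0.02). In limma 0 of these 5 passed the test, also at an unadjusted p under 0.05, where 16.0% of all tested genes were called downregulated and 30.0% were lower at the unadjusted p. The values of Kdm4b and Kdm4c were nonetheless lower in all cold-acclimated libraries. Kdm4d was under the filter, with at most 0.844 TPM. Of the H3K36 demethylases, Kdm2a had a log2 fold change of -0.31, and 0.08 with median of ratios scaling. Kdm2b was at 4.84, 6.42 and 1.78 TPM at 37°C and 1.46, 1.43 and 1.66 TPM at 26°C and was not called (log2 fold change -0.97 with a standard error of 0.40, limma adjusted p = 0.12), nor with the replicate as a term (0.0698) or median of ratios scaling (0.236). It was called downregulated without replicate 3 (log2 fold change -1.43, adjusted p = 0.0147 in limma) or without non-acclimated replicate 3 alone (adjusted p = 0.027). Kdm8 had a log2 fold change of -0.27, and 0.05 with median of ratios scaling.

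Related enzymes were then compared within each library, since a ratio of 2 genes does not depend on the scaling of the library apart from the added pseudocount of 1. For 15 pairs of paralogues, the log2 ratio of TPM + 1 was compared between the conditions. In 6 pairs the ratios did not overlap, and in the other 9 they did. These counts and the test below take the libraries as unpaired. Within same-numbered replicates, all 6 pairs and 4 of the other 9 (Hdac1/Hdac2, Suv39h1/Suv39h2, Kmt2c/Kmt2d and Kdm1a/Kdm1b) differed with 1 sign in all 3 replicates. The exact two-sided permutation test of 3 libraries against 3 cannot give a p below 0.1, the value of each of these 6 pairs, and adjusted over the 15 pairs the p was 0.25 in this permutation test. Ratios of other gene pairs were not counted, so the counts without overlap and with 1 sign have no background share beside them. Of single tested genes, 9.69% were higher and 31.4% lower in all cold-acclimated libraries, without overlap. The balance of Setd1a to Setd1b was 1.58, 1.65 and 1.15 at 37°C and 3.85, 3.53 and 3.23 at 26°C, a mean difference of 2.08. All 3 cold-acclimated ratios lay toward Setd1a. The ratio of Kmt2a to Kmt2b was -0.07, -0.88 and -0.60 at 37°C and -2.82, -3.05 and -1.82 at 26°C (mean difference -2.04), which lay toward Kmt2b. For Kat2a to Kat2b the ratios were 1.33, 1.92 and 2.13 and, after cold acclimation, 3.92, 3.45 and 3.00 (mean difference 1.66). The Kmt5b to Kmt5c ratio was -2.27, -1.92 and -1.29 at 37°C and -0.53, -0.27 and -0.16 at 26°C, near an equal level of both in the cold.

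The other separated pairs were smaller in difference. The Ehmt1 to Ehmt2 ratio was -1.28, -0.87 and -1.95 at 37°C and -1.95, -2.08 and -2.86 at 26°C (mean difference -0.93), and its nearest values were apart only before rounding, so this pair separated by almost nothing. Ep300 to Crebbp differed by -0.68 on average. The Ep300 to Crebbp ratio was 1.44, 1.45 and 1.51 at 37°C and 0.88, 0.62 and 0.86 at 26°C, a small difference with little spread among replicates. Ezh1 and Ezh2, which both fell, kept overlapping ratios of -2.56, -3.38 and -3.15 at 37°C and -2.70, -1.20 and -3.21 at 26°C (mean difference 0.66, exact two-sided permutation p = 0.5). In the Suv39h1 and Suv39h2 pair the ratio was -0.11, -0.07 and 1.58 and -1.06, -1.43 and 1.24, with both libraries of replicate 3 toward Suv39h1 and apart from the other 4. The ratio of Hdac1 to Hdac2 was higher at 26°C within each replicate, by 0.27 to 0.41, with overlap between the conditions (exact two-sided permutation p = 0.2).

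**Figure D3:**
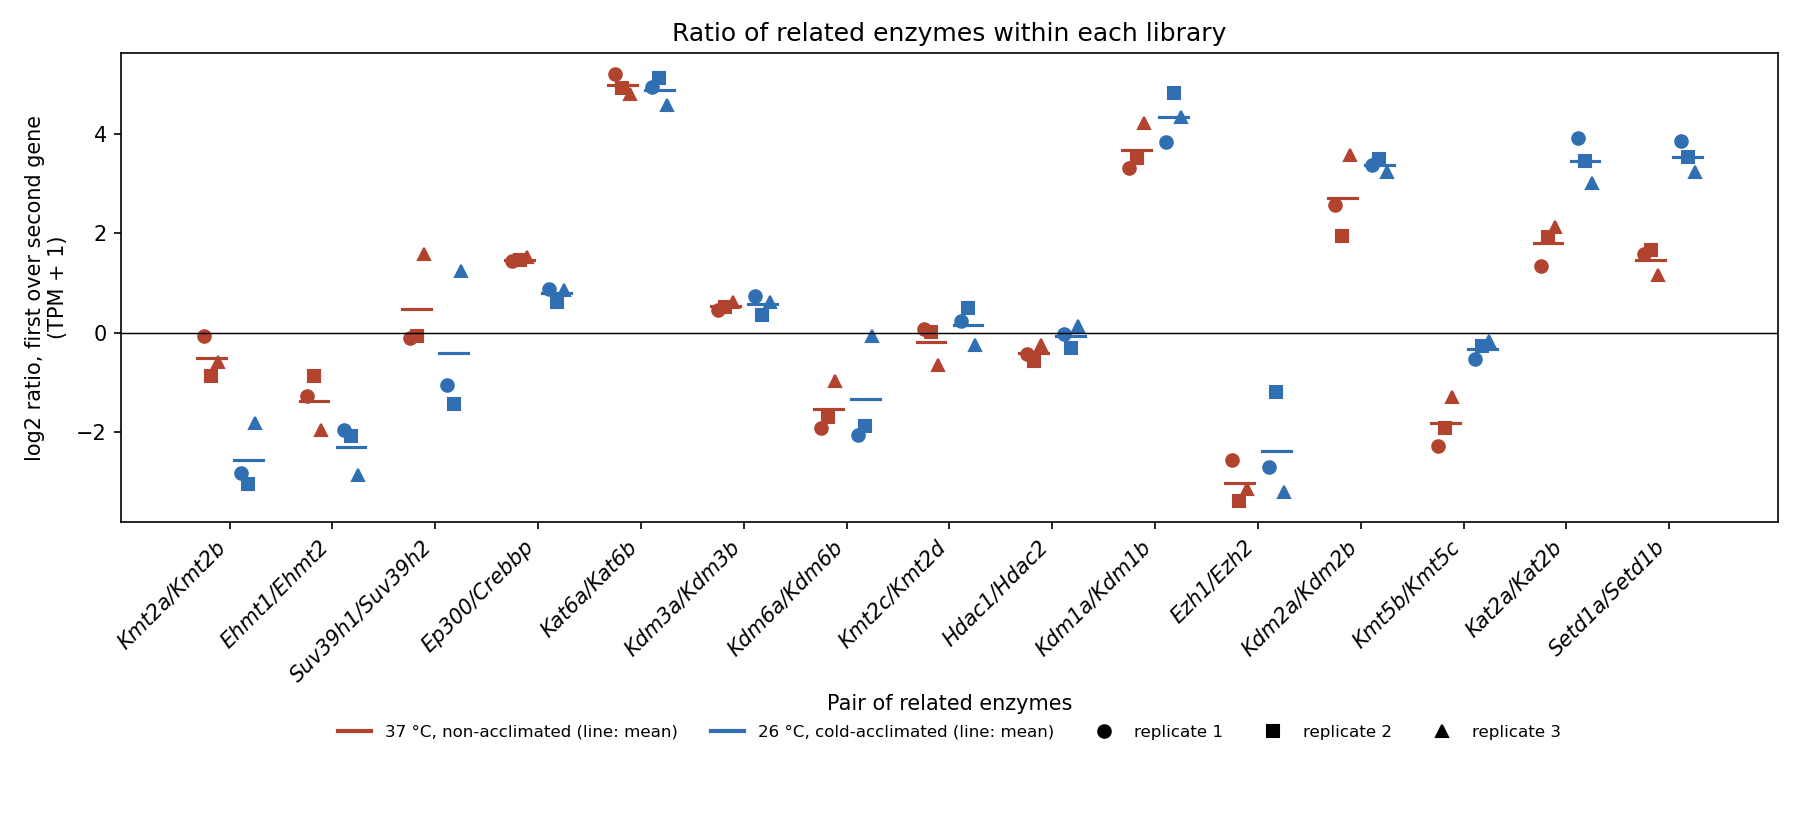
Log2 ratio of TPM + 1 of the first over the second gene of 15 paralogue pairs in each of the 6 libraries, ordered by the mean difference between conditions. Red is 37°C, blue is 26°C, marker shapes give the replicate and short lines the means of 3 libraries. Setd1a/Setd1b at the right (2.08) and Kmt2a/Kmt2b at the left (-2.04) mark the ends of the range, and 6 pairs do not overlap, Ehmt1/Ehmt2 by the narrowest margin.

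Histone lysine enzymes that the naming rule leaves out were counted beside the 71. Of 24 such genes, 21 were tested, with 4 called downregulated and 0 upregulated in limma, 2 higher and 7 lower at an unadjusted p under 0.05, and 0 called upregulated by voom. Of all tested genes 16.0% were called downregulated and 2.63% upregulated, and 30.0% were lower and 7.75% higher at the unadjusted p. The list held 2 upregulated and 2 downregulated genes with median of ratios scaling, beside 6.56% and 8.80% of all tested genes. Fitted log2 fold changes of the 21 had a median of -0.18. Smyd4, a SET and MYND domain protein, was at 19.1, 17 and 12.9 TPM at 37°C and 5.52, 5.27 and 4.59 TPM at 26°C (log2 fold change -1.49 with a standard error of 0.26, limma adjusted p = 0.0115), and was not called without 26°C replicate 1 (0.0503) or 37°C replicate 1 (0.0551) or 2 (0.0604), given with the limma adjusted p. Riox2, a nucleolar oxygenase, was at 86.5, 66 and 99.9 TPM at 37°C and 17.7, 17.6 and 38.1 TPM at 26°C (log2 fold change -1.81 with a standard error of 0.35, limma adjusted p = 0.0155), and was not called without 26°C replicate 1 (0.0642) or 2 (0.0608) or 37°C replicate 1 (0.0595) or 2 (0.0518). The other 2 genes called were the H3K9 methyltransferase Setdb1 (log2 fold change -1.19) and the H3K36 methyltransferase Ash1l (-1.08). The call of Setdb1 ended without 26°C replicate 1 (0.0716) or 2 (0.0638) or 37°C replicate 2 (0.0811), or with median of ratios scaling (0.0463, log2 fold change -0.81), and that of Ash1l without 26°C replicate 1 (0.0828), 2 (0.105) or 3 (0.0525) or 37°C replicate 1 (0.124) or 2 (0.116), or with median of ratios scaling (0.132) or no filter on low values (0.0814).

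Some enzymes share their position with another gene. The libraries keep strand, but the strand setting of the counting is not given in the sources used here, so reads of an enzyme and an opposite-strand neighbour may not be separated where they overlap. The opposite-strand neighbours with the highest levels were Cnot1 beside Setd6, Gm19897 beside Sirt2, Slc48a1 beside Hdac7 and Nelfa beside Nsd2. The values of Setd6 and Sirt2, whose overlaps span 2577 and 6616 bases of gene body, are uncertain for this reason. So are those of Suv39h2 (18397 bases with Dclre1c, mean 13.2 TPM), Kdm7a (11693 bases with 4930599N23Rik, 10.7 TPM), Kmt2e (972 bases with Srpk2, 13.5 TPM) and Setd1b (519 bases with Gm54284, 11.2 TPM). Sirt3, at a mean of 7.87 TPM, overlaps Ric8a at 47.2 TPM by 69 bases. Nelfa and Slc48a1 overlap their neighbours by 48 and 32 bases only.

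The promoters of the downregulated enzymes were searched for 3 short motifs, chosen after the expression values were seen. RefSeq promoter windows on GRCm38.p6, from 250 bases before to 50 bases after a transcript start, were at hand for 56 of the 71 enzymes and for 27025 genes in all. The E2F core TTCCCGC, searched on both strands, was in a window of 3 of the 11 matched downregulated enzymes, Kmt5c, Sirt4 and Sirt6, and of 1 of the 41 matched tested enzymes that were not called, Suv39h2. Over all 56 enzymes it was in a window of 4 (7.14%), beside 9.91% of tested genes and 5.29% of all genes with a window. Of the 3 downregulated enzymes with this motif, Kmt5c and Sirt6 lost their call with median of ratios scaling. Each of the 3 was called in 2 of the 6 fits with 1 library left out. A link between the motif and the changes was not tested. The E-box CACGTG was in a window of 6 of 56 enzymes (10.7%), 1 of the 11 downregulated and 5 of the 41 not called, beside 11.5% of tested genes and 8.09% of all genes. The cyclic AMP response element TGACGTCA was in 1 of 56, 0 of the 11 and 1 of the 41, beside 3.51% of tested and 2.03% of all genes. A match is a run of letters and not a shown binding site. The 3 windows with an E2F core among the downregulated enzymes are printed from 5′ to 3′ on the gene's strand, with the matched letters in capitals, followed by that of Ezh2, the enzyme with the largest change, whose window held none of these letters. Positions are on GRCm38.p6, unlike the GRCm39 positions of the genes.
Kmt5c, chr7:4739877-4740176, plus strand: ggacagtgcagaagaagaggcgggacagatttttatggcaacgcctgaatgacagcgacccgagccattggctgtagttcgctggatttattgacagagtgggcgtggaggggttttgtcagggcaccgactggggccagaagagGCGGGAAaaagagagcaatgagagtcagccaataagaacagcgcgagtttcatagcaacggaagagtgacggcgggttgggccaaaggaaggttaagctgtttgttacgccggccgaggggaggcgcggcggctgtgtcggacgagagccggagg
Sirt4, chr5:115484248-115484547, minus strand: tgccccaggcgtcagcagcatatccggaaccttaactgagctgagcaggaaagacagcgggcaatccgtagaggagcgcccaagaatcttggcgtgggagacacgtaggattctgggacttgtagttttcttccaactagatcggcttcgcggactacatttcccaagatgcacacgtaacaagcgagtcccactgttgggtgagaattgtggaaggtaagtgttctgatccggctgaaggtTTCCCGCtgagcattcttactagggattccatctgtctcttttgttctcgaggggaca
Sirt6, chr10:81627273-81627572, minus strand: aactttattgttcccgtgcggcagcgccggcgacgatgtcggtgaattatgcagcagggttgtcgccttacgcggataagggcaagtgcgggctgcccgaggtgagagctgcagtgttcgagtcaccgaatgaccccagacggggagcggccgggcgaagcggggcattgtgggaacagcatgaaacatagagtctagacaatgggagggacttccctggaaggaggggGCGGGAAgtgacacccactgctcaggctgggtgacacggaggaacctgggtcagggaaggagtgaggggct
Ezh2, chr6:47594981-47595280, minus strand: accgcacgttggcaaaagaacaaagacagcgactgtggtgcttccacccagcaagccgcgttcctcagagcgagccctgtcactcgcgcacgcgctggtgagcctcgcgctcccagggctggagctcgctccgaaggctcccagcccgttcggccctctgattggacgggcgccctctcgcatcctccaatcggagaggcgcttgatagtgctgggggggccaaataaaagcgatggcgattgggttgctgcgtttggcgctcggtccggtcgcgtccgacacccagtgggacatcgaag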

How the data were processed

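RNA sequencing of the 6 libraries was used as the TPM values deposited by the authors, one table of 41079 genes with symbols, types and GRCm39 positions. The submitters' processing notes name FastQC 0.11.7, Trimmomatic 0.38, HISAT2 2.1.0 and featureCounts 1.6.3. The annotation release is not given in the sources used here. All 71 enzymes matched a GENCODE gene by Ensembl identifier, chromosome and strand.

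Read numbers were recovered from the smallest shared increment of each gene for 21189 of the 21195 genes above 0, whole within 1e-06 reads. Conditions were compared by limma 3.58.1 (R 4.3.3), with its trend option and log2(TPM + 1) as input, over 12227 genes whose mean reached 1 TPM, with Benjamini-Hochberg adjustment over all of them. The fit was tested on simulated libraries without shared replicate differences, in which 200 of 12136 genes were changed. It called 200 of these 200 with the right sign, and 19 other genes. Such libraries cannot show how the fit behaves where same-numbered libraries deviate together. Calls required adjusted p < 0.05 together with a 2-fold change or more in TPM + 1. Ratios, lists, promoters and figures used Python 3.11.15 (pandas 2.3.3, numpy 2.4.6, matplotlib 3.10.9, scipy 1.17.1).

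Same-numbered libraries deviated together from their condition means across genes (r = 0.48, 0.50 and 0.51 for replicates 1, 2 and 3, and -0.41 to 0.019 for different numbers). The main fit nonetheless took the libraries as unpaired. Adding the replicate to the model was an alternative, beside a pseudocount of 0.1, no filter, median of ratios scaling, voom on recovered reads and each library left out in turn. The replicate term together with median of ratios scaling, and leaving out both libraries of replicate 3, were added after seeing the data.

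The genes named were every enzyme past both thresholds, in each class the enzyme with the highest mean TPM at 37°C and the 2 with the smallest p, 11 well-known enzymes (Ep300, Crebbp, Hdac1, Hdac2, Hdac3, Sirt1, Ezh1, Ezh2, Kdm6a, Kdm6b and Dot1l), in each partner list the 2 genes with the smallest p, and Mki67, Cd3e and Cd4. Every other gene named was picked for description after its values were seen, or to account for all 71 enzymes. Partner lists covered Polycomb repressive complex 2, COMPASS, deacetylase corepressors, acetyltransferase complexes and enzymes outside the naming rule. Marker lists covered T cells, B cells, macrophages, erythroid and dividing cells. The summed levels of the B cell and erythroid lists are not reported here. The enzymes and lists were chosen with earlier results of these data known.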

Additional observations from a re-analysis of the deposited data

How the results depend on the processing

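With TPM as deposited, 0 enzymes were called upregulated and 14 downregulated, 1 and 17 at the adjusted p alone, and 321 and 1954 of all tested genes were called. Median of ratios scaling gave 2, 7, 4, 9, 802 and 1076 in this order. A pseudocount of 0.1 gave 0, 15, 1, 17, 315 and 1953, with Kat8 added to the downregulated. The replicate block gave 0, 14, 1, 21, 458 and 2679, with the same 14 enzymes called, and apart from the adjusted p of Kat6a, Hdac2, Hdac7 and Hdac10 it changed no other call of an enzyme. The block with median of ratios scaling, chosen after seeing the data, gave 3, 7, 10, 11, 1087 and 1550. Without a filter on low values, which tests more genes, the numbers were 0, 10, 1, 11, 184 and 1121, and voom gave 1, 14, 2, 15, 408 and 1702. With libraries left out, including both of replicate 3, they ranged from 0 to 2, 2 to 19, 0 to 3, 2 to 23, 59 to 653 and 345 to 3088. Without both libraries of replicate 3 they were 2, 18, 3, 21, 653 and 3088. The median log2 fold change of the enzymes relative to all tested genes was -0.12, and -0.12 with the block, -0.37 without the filter and -0.26 to -0.03 with libraries left out. Without the filter the calls of Ezh2, Kdm1b, Nsd2 and Setd1b ended. With median of ratios scaling the sign turned for 11 enzymes that were not called, Dot1l, Hdac4, Kat2a, Kat5, Kdm2a, Kdm3a, Kdm3b, Kdm8, Setd7, Sirt1 and Sirt2. With median of ratios scaling, with or without the block, the log2 fold change was 0.33 for Dot1l, 0.27 for Kat2a, 0.18 for Sirt1 and 0.40 for Sirt2. With voom it was 0.06 for Dot1l, 0.00 for Kat2a and 0.13 for Sirt2. With libraries left out it ran from -0.17 to 0.22 for Dot1l, -0.34 to 0.10 for Kat2a, -0.30 to -0.06 for Sirt1 and -0.18 to 0.18 for Sirt2. The causes of these differences were not tested, and fewer libraries leave fewer degrees of freedom.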

Other observations

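The 4 tested enzymes whose TPM in replicate 3 differed from the mean of replicates 1 and 2 by at least 1 on the log2 scale at both temperatures were Suv39h1 and Hdac6, which were higher, and Kdm5b and Kdm7a, which were lower. Among all tested genes, 369 (3.02%) were higher in this way and 361 (2.95%) lower. Suv39h1 and Hdac6 lie 113 kb apart on chromosome X. The genes around them were examined after these values were seen. Leaving out these 2, which defined the region, 11 of the 28 other tested genes within 500 kb (39.3%) were higher in replicate 3 at both temperatures and 0 were lower. On all of chromosome X, again without the 2, 45 of 370 tested genes (12.2%) were higher and 7 lower.

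Replicate 3 exceeded replicates 1 and 2 by 1.12 at 37°C and 2.40 at 26°C for Suv39h1, on the log2 scale. The values were 1.25 and 2.30 for Hdac6, 1.59 and 2.12 for Was, 1.41 and 2.26 for Ebp, 1.21 and 1.30 for Plp2 and 3.18 and 2.65 for Pim2. Gata1, which lies between Hdac6 and Suv39h1, did not share the difference (-0.43 and 0.27). Its level was 32.6, 62.3 and 33.1 TPM at 37°C and 11.1, 18.5 and 17.5 TPM at 26°C. Rbm3, a cold-inducible RNA-binding protein gene of the same stretch, was at 93.1, 199 and 271 TPM at 37°C and 146, 190 and 504 TPM at 26°C.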
